A study of Homo sapiens with 8 samples.

Results

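TET2 and 7 genes that work with it or beside it in the removal of DNA methylation were followed on 8 expression arrays of prostate cancer cells. The 8 genes were TET1, TET2, TET3, TDG, SMUG1, OGT, IDH1 and IDH2. With earlier results of these data known, they were chosen by name, from what they do, among 18417 genes that the arrays name. They have 9 probe sets among the 33297 on the array, 2 for TET2 and 1 for each other gene, and all 9 are described here. The arrays came from LNCaP, an established prostate cancer line that responds to androgen, and from DU145, an established prostate cancer line that does not need it. Both lines were given an siRNA against TET2 (siTET2), the microRNA miR-29b, a control siRNA (siControl) or a negative control microRNA (nc), and RNA was extracted 72 hours later. All cells grew in RPMI medium with 10% serum, all were transfected, and no untransfected cells were analysed here. The question, as the title of the study puts it, is what siTET2 or miR-29b does to expression. Each line and construct had 1 array, so a difference within a line compares 2 arrays and has no replicate check. The labels name only 1 construct against TET2, siTET2, and loss of TET2 cannot be told apart from other actions of that construct.

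TET1, TET2 and TET3 are enzymes that oxidise methylated cytosine in DNA, first to hydroxymethylcytosine and then to formylcytosine and carboxylcytosine. Thymine DNA glycosylase, encoded by TDG, cuts out formylcytosine and carboxylcytosine, and base excision repair then fills the gap with plain cytosine. SMUG1 is a glycosylase that removes uracil and hydroxymethyluracil. OGT attaches the sugar N-acetylglucosamine to proteins and binds TET2 and TET3. IDH1 in the cytosol and IDH2 in mitochondria make alpha-ketoglutarate, the cosubstrate that TET enzymes consume.

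The miR-29 family reads its targets mainly through the seed, bases 2 to 8 of the mature strand. The mature sequences below are those of RefSeq, on build GRCh38.p14, with the seed in capitals, and they are shown because the seed is what the family shares. The labels give miR-29b without its arm, and the strand shown is the 3p arm.

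hsa-miR-29b-3p: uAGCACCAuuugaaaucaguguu

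hsa-miR-29a-3p: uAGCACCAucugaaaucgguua

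hsa-miR-29c-3p: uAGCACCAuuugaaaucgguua

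All 3 carry the seed AGCACCA. Over the 22 bases compared, and counted from 1 at the 5′ end with the base of miR-29b first, miR-29a differs at 4 positions (U10C, A18G, G21U, U22A) and miR-29c at 3 (A18G, G21U, U22A). None of these lies in the seed. miR-29b is encoded at 2 places, MIR29B1 at chr7:130877467-130877489 and MIR29B2 at chr1:207802450-207802472, both on the minus strand. miR-29a lies at chr7:130876748-130876769 and miR-29c at chr1:207801865-207801886, also on the minus strand.

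Values are log2 expression values, so a difference of 1 is a 2-fold difference. The medians over all probe sets were 7.10 to 7.17 on the LNCaP arrays and 6.59 to 6.66 on the DU145 arrays. Probe sets of different genes hybridise differently, so a level is compared across arrays for 1 gene and never between genes. A gene was taken as measurable on an array if it reached the 50th percentile of the named genes there. That level was 7.625 to 7.705 in LNCaP and 7.365 to 7.417 in DU145. It is a cut-off set here, and no detection limit was measured. The lines carried their own markers: of 8 LNCaP markers, 7 or 8 reached that level on LNCaP arrays and 2 on DU145 arrays. Of 10 DU145 markers, 1 did so on LNCaP arrays and 9 on DU145 arrays. Of 9 immune cell markers, 0 reached it on any array, and of 9 fibroblast markers, 0 or 1 did.

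A construct's effect shared by the lines was tested in limma over the 8 arrays. The model had terms for line and construct, 3 residual degrees of freedom and Benjamini-Hochberg adjustment over 9209 genes. These are the genes whose mean over the arrays reached the median of all gene means, 7.533. TET2, TET3, SMUG1, OGT, IDH1 and IDH2 were tested, 6 of the 8. TDG, with a mean of 7.515, missed that level narrowly, and TET1, with a mean of 6.666, lay further below it. The words rose and fell are kept for an adjusted p under 0.05. The labels name no separate cultures, and no line has a repeated array of the same construct. The spread behind these p-values therefore comes from disagreement between the lines over a construct. Each gene's own spread is pooled by limma with that of all genes tested, so other genes enter it as well. The disagreement between the lines may be technical or a real difference in response, and the spread between repeated arrays was not measured. RNA was taken from whole cultures, so fewer cells with a transcript and less of it per cell cannot be told apart.

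**Figure D1:**
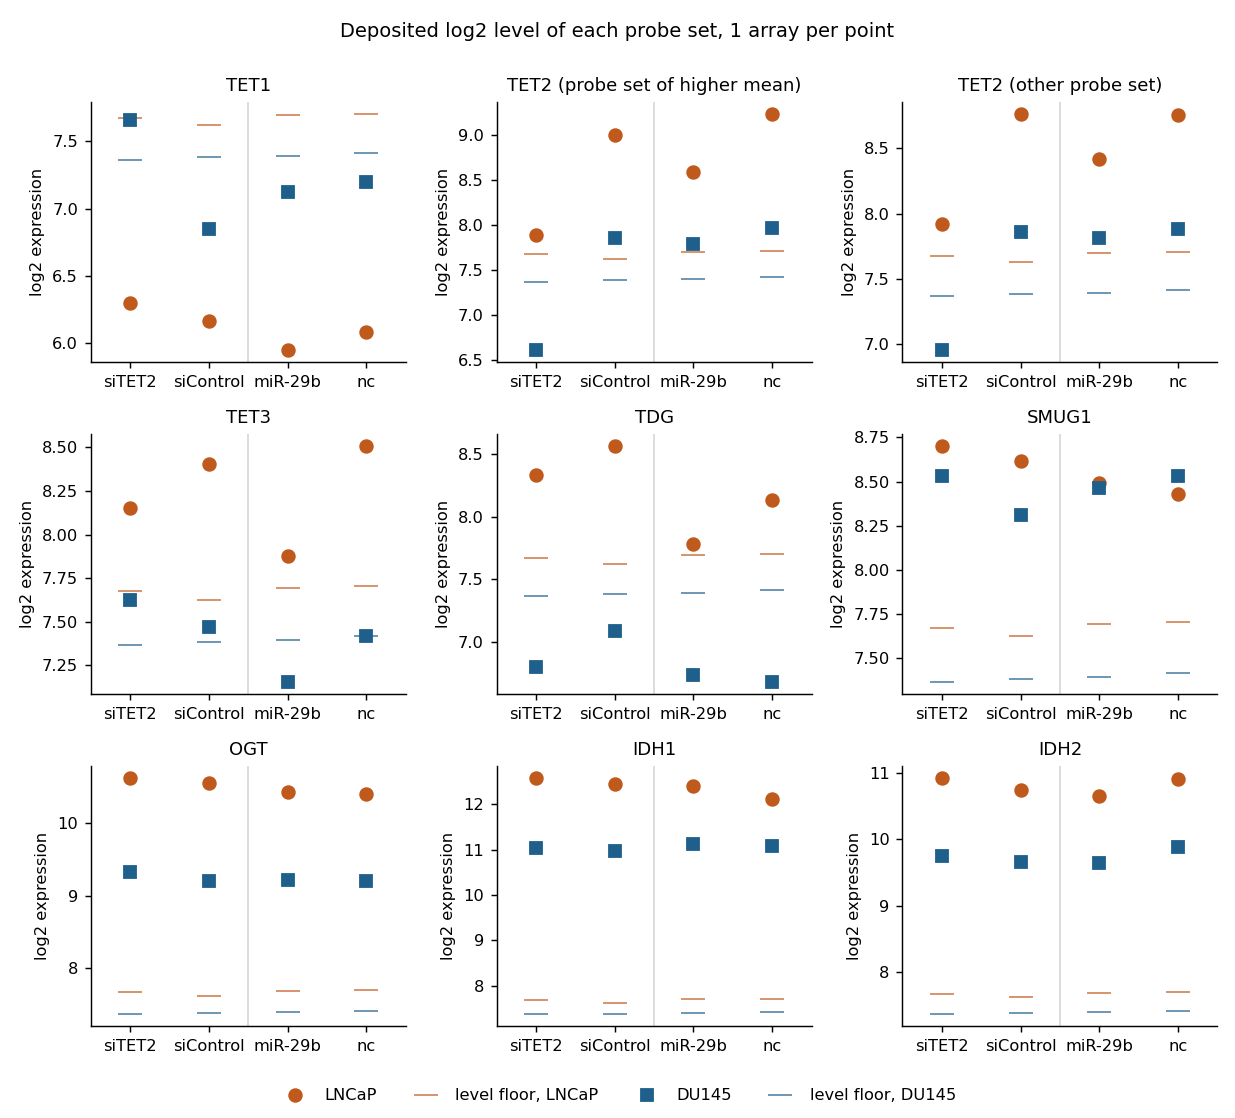
Log2 level of each of the 9 probe sets (1 panel a probe set, y axis) on the 8 arrays, with the constructs in the order siTET2, siControl, miR-29b and nc along the x axis and the lines shown by colour. Each point is 1 array, with no error bar, and short horizontal lines mark the measurable level of that array. TET2 lies lowest on the siTET2 array of each line, at 7.89 in LNCaP and 6.60 in DU145.

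TET2 fell with siTET2, and it was the only 1 of the 6 genes tested that passed the test in this contrast. In LNCaP the probe set of higher mean read 7.89 with siTET2 and 9.01 with siControl, and it read 8.59 with miR-29b and 9.24 with nc. In DU145 it read 6.60 with siTET2 and 7.85 with siControl, and it read 7.79 with miR-29b and 7.96 with nc. Within each line the siTET2 array was the lowest of the 4 and the miR-29b array came next, below both controls. On the DU145 siTET2 array TET2 lay below the measurable level. The siTET2 level was 46.0% of the siControl level in LNCaP and 42.1% in DU145.

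The common difference of siTET2 minus siControl was -1.18 (SE 0.124, 95% interval -1.47 to -0.90, limma adjusted p = 0.0178), with TET2 lower in both lines. Of all 9209 genes tested, 0.347% fell and 0.0326% rose. Within LNCaP, TET2 was 1 of 2 genes among 9422 measurable ones that lay as low or lower. Within DU145 it was 1 of 9 among 9424. There TET2 was measurable on the siControl array but not on the siTET2 array, so nothing is read from that rank. The call was lost without the LNCaP siControl array (limma adjusted p = 0.339), without the DU145 siControl array (0.175), without the DU145 siTET2 array (0.0758) and with all 18417 genes in the fit (0.0730). Over these settings the difference itself stayed between -1.20 and -1.08.

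The other TET2 probe set gave a smaller difference in the same direction. It read 7.92 with siTET2 and 8.76 with siControl in LNCaP, and 6.95 with siTET2 and 7.86 with siControl in DU145. The differences were -0.85 (as computed, -0.845) and -0.91, against -1.12 and -1.25 for the probe set of higher mean. With every probe set fitted on its own, its common difference was -0.88 (limma adjusted p = 0.0233).

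TET1 gave the largest positive difference of the 8 genes with siTET2, in DU145. It read 7.66 with siTET2 and 6.85 with siControl there, and 7.13 with miR-29b and 7.19 with nc. The siTET2 array was the only 1 of the 8 on which TET1 reached the measurable level. The difference from siControl was 0.81, with the siControl value below the measurable level, so its size rests on a weak signal. Both controls differed from each other by -0.35 (siControl minus nc), and against nc the difference was 0.46.

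In LNCaP, TET1 read 6.30 with siTET2, 6.17 with siControl, 5.95 with miR-29b and 6.09 with nc. These 4 values lie below the measurable level and within 0.354 of each other. When all 18417 genes were fitted, the common difference of TET1 was 0.47 (SE 0.157, 95% interval 0.111 to 0.831, limma adjusted p = 0.524), positive in both lines. It did not pass the test.

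TET3 lay on opposite sides of siControl in the 2 lines. It read 8.15 with siTET2 and 8.40 with siControl in LNCaP, a difference of -0.25. In DU145 it read 7.63 with siTET2 and 7.47 with siControl, a difference of 0.16. The common difference was -0.05 (95% interval -0.349 to 0.252, limma adjusted p = 0.900).

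**Figure D2:**
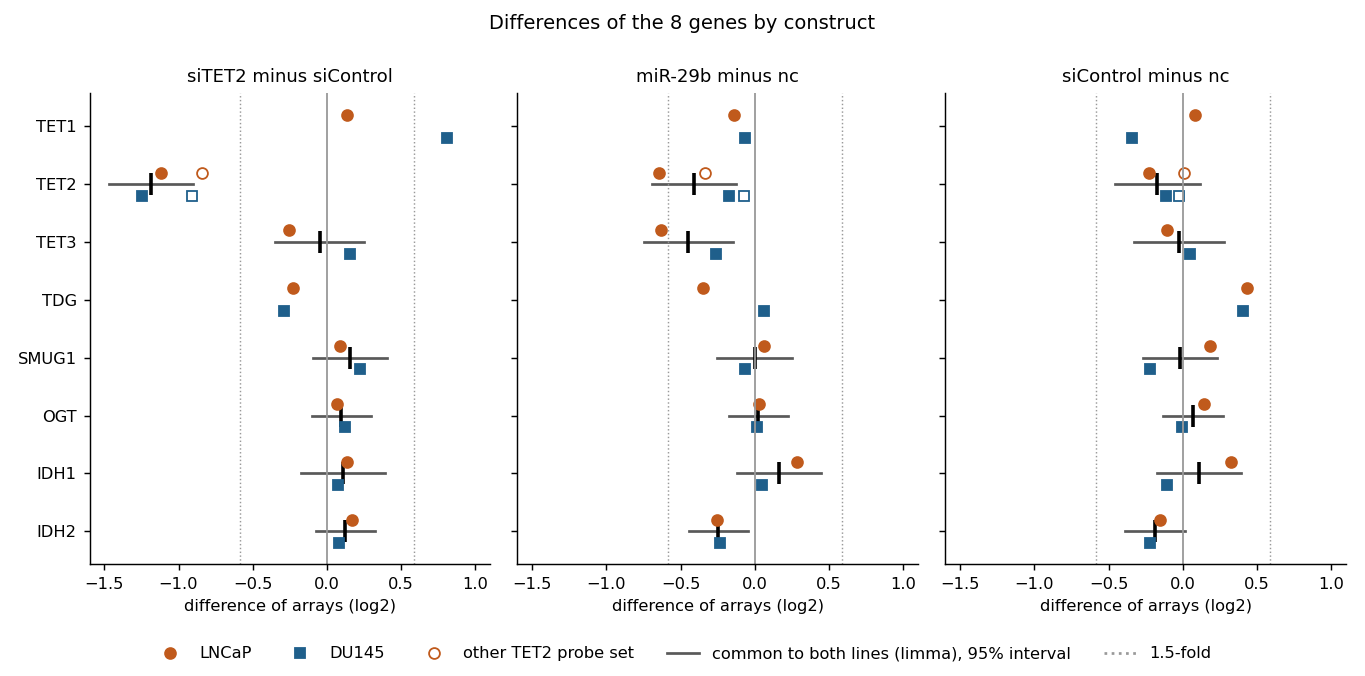
Differences between 2 arrays of a line on the log2 scale (x axis) for the 8 genes (y axis), in 1 panel a comparison: siTET2 minus siControl, miR-29b minus nc, and siControl minus nc. Filled points are the probe set that stands for the gene, open points the other TET2 probe set, and colour gives the line, while grey bars with a black tick are the common difference and its 95% interval and dotted lines mark 1.5-fold. TET2 stands apart at -1.12 and -1.25 in the siTET2 panel, while TET2 and TET3 lie together at -0.64 and -0.63 for LNCaP in the miR-29b panel.

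Of the 2 glycosylases, TDG was lower with siTET2 than with siControl in both lines, but not lower than with nc. In LNCaP it read 8.33 with siTET2, 8.57 with siControl, 7.78 with miR-29b and 8.13 with nc. The DU145 arrays gave 6.80 with siTET2, 7.09 with siControl, 6.74 with miR-29b and 6.68 with nc, below the measurable level on all 4 arrays. Against siControl the siTET2 differences were -0.23 in LNCaP and -0.29 in DU145, and against nc they were 0.20 and 0.12. With all 18417 genes fitted, siTET2 minus siControl was -0.26 for TDG (95% interval -0.575 to 0.0584, limma adjusted p = 0.695). The control arrays themselves differed in TDG by 0.43 in LNCaP and 0.41 in DU145, siControl being the higher in both.

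SMUG1 read 8.70 with siTET2 and 8.61 with siControl in LNCaP, and 8.53 with siTET2 and 8.31 with siControl in DU145. The common difference was 0.15 (95% interval -0.0968 to 0.404, limma adjusted p = 0.577).

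OGT and the isocitrate dehydrogenases were slightly higher with siTET2 than with siControl in both lines, and none passed the test. OGT read 10.62 with siTET2 and 10.55 with siControl in LNCaP, and 9.32 with siTET2 and 9.20 with siControl in DU145, for a common difference of 0.10 (95% interval -0.102 to 0.297, limma adjusted p = 0.668). IDH1 read 12.58 with siTET2 and 12.44 with siControl in LNCaP, and 11.05 with siTET2 and 10.97 with siControl in DU145. Its common difference was 0.11 (95% interval -0.177 to 0.39, limma adjusted p = 0.746).

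IDH2 read 10.92 with siTET2 and 10.75 with siControl in LNCaP, and 9.74 with siTET2 and 9.66 with siControl in DU145, for a common difference of 0.13 (95% interval -0.0768 to 0.327, limma adjusted p = 0.574). The intervals of these 3 genes and of SMUG1 reach no higher than 0.404 and no lower than -0.177. The direction for IDH2 turned when nc took the place of siControl, with a common difference of -0.06.

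At a threshold of 1.5-fold within a line, siTET2 set 1 of the 8 genes apart in LNCaP, TET2, which was lower. The same threshold took 2.37% of measurable genes as lower and 0.382% as higher in LNCaP. In DU145 TET2 was again lower, where 1.59% of measurable genes were lower and 0.955% higher. It was measurable on the siControl array but not on the siTET2 array, so nothing is read from its counts in DU145. TET1 also lay beyond 1.5-fold there, on the higher side, but it was measurable only on the siTET2 array, where it was high, and nothing is read from its count. TET2 also passed 2-fold in both lines, as 0.0955% of measurable genes did on the lower side in LNCaP and 0.212% in DU145. None of the 8 was 2-fold higher, as 0.0531% of measurable genes were in LNCaP and 0.127% in DU145.

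**Figure D3:**
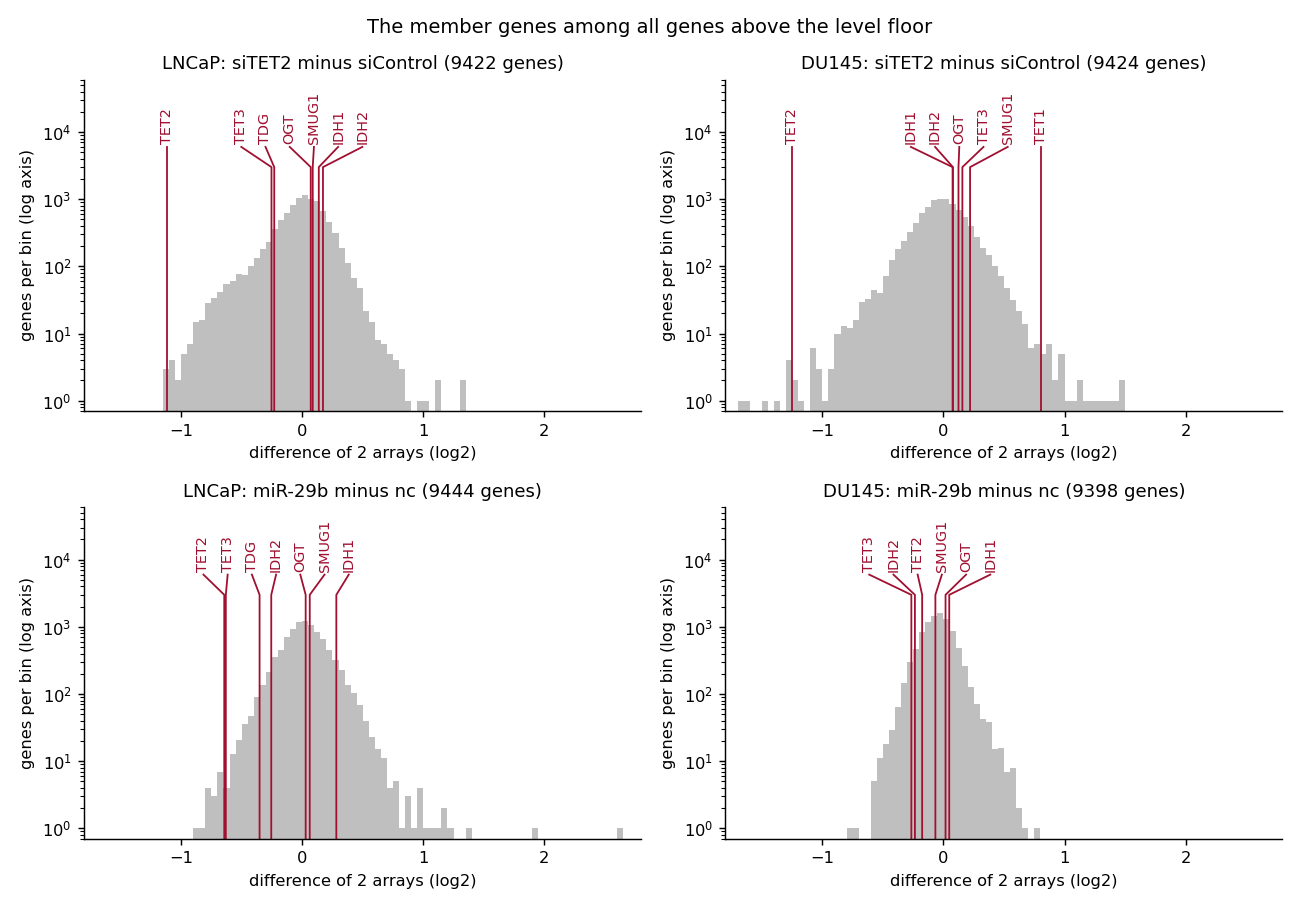
Number of measurable genes (y axis, log scale) by difference between 2 arrays on the log2 scale (x axis), for siTET2 minus siControl (top) and miR-29b minus nc (bottom) in LNCaP (left) and DU145 (right). Red lines mark those of the 8 genes that were measurable. TET2 sits at the low edge of both siTET2 panels, in DU145 measurable only through its siControl array. TET1, measurable only through its siTET2 array, sits near the high edge in DU145. TET2 and TET3 sit at the low edge for miR-29b in LNCaP.

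With miR-29b, TET2 and TET3 were both lower than with nc, and by more in LNCaP than in DU145. In LNCaP, TET2 read 8.59 with miR-29b and 9.24 with nc, a difference of -0.64 that left 64.0% of the nc level. The DU145 values were 7.79 with miR-29b and 7.96 with nc, a difference of -0.18 that left 88.5%. Only 18 of 9444 measurable genes (0.191%) lay as low or lower in LNCaP, whereas 14.9% of genes did so in DU145. Whether the 2 lines differ in this was not tested, since each has 1 array a construct.

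The LNCaP difference of TET2 depended on the probe set and on the control. The other TET2 probe set read 8.42 with miR-29b and 8.76 with nc in LNCaP (-0.34), and 7.81 with miR-29b and 7.88 with nc in DU145 (-0.07). Against siControl, the probe set of higher mean gave -0.41 in LNCaP and -0.06 in DU145. All of these values are below 0, and those of DU145 are close to it.

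TET3 read 7.88 with miR-29b and 8.51 with nc in LNCaP, a difference of -0.63 that left 64.6% of the nc level. In DU145 it read 7.15 with miR-29b and 7.42 with nc, a difference of -0.26 that left 83.2%. The DU145 miR-29b array is below the measurable level for TET3. Of measurable genes, 0.201% lay as low or lower in LNCaP and 4.91% in DU145. TET3 counted as measurable in DU145 only through its nc array, so nothing is read from its share there. For TET3 the miR-29b array was the lowest of the 4 in each line, and it stayed lower against siControl, by -0.53 in LNCaP and -0.32 in DU145.

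The limma test over both lines called none of the 6 genes with miR-29b, and it called 0 of all 9209 genes (0.0%). At an unadjusted p under 0.05 there were 344 genes, of which 244 were lower (2.65%) and 100 higher (1.09%). TET3, TET2 and IDH2 were among the lower ones, 3 of the 6 tested. TET3 had a common difference of -0.45 (SE 0.132, 95% interval -0.749 to -0.147, limma adjusted p = 0.995). TET2 had one of -0.41 (SE 0.124, 95% interval -0.693 to -0.126, limma adjusted p = 0.995). With 1 array left out, TET2 ran between -0.63 (without the DU145 miR-29b array) and -0.19 (without the LNCaP miR-29b array). TET3 ran between -0.63 (without the DU145 nc array) and -0.27 (without the LNCaP nc array), and both stayed below 0.

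IDH2 read 10.65 with miR-29b and 10.90 with nc in LNCaP, and 9.65 with miR-29b and 9.88 with nc in DU145. The differences were -0.26 and -0.24, and the common one was -0.25 (SE 0.0885, 95% interval -0.447 to -0.0435, limma adjusted p = 0.995). Against siControl they were -0.10 and -0.01. The nc array was the highest of the 4 for IDH2 in DU145, and in LNCaP it lay at 10.90 beside 10.92 with siTET2.

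TDG with miR-29b was the lowest of the 4 arrays in LNCaP, with 7.78 against 8.13 with nc. The difference was -0.35, and 2.34% of measurable genes lay as low or lower. Against siControl it was -0.79, the one difference of a member beyond 1.5-fold when siControl took the place of nc. In DU145 it read 6.74 with miR-29b and 6.68 with nc, below the measurable level.

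SMUG1, OGT and IDH1 were not among the genes at an unadjusted p under 0.05. TET1 differed by -0.14 in LNCaP and -0.07 in DU145, below the measurable level throughout. SMUG1 read 8.49 with miR-29b and 8.43 with nc in LNCaP, and 8.46 with miR-29b and 8.53 with nc in DU145. OGT read 10.44 with miR-29b and 10.41 with nc in LNCaP, and 9.22 with miR-29b and 9.21 with nc in DU145. IDH1 was 0.28 higher in LNCaP and 0.05 higher in DU145, and in LNCaP it lay below siControl (12.40 with miR-29b and 12.44 with siControl). The limma adjusted p-values of SMUG1, OGT and IDH1 were 0.995 or above.

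At 1.5-fold within a line, 2 of the 8 genes were set apart by miR-29b in LNCaP, TET2 and TET3, both lower, where 0.244% of measurable genes were lower and 0.604% higher. In DU145 none of the 8 was, where 0.0532% of measurable genes were lower and 0.0638% higher. Against the mean of both controls, neither TET2 (-0.53) nor TET3 (-0.58) reached 1.5-fold in LNCaP.

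The 2 control constructs give the background for these values. Over the 8 genes, siControl minus nc lay between -0.23 (TET2) and 0.43 (TDG) in LNCaP and between -0.35 (TET1) and 0.41 (TDG) in DU145. None of the 8 was 1.5-fold apart in either line, as 1.79% of measurable genes were on the higher side and 0.514% on the lower side in LNCaP, and 0.16% and 0.181% in DU145. The limma test called 0 of the 6 and 0 of 9209 genes (0.0%), with 0 of the 6 at an unadjusted p under 0.05 beside 6.29% of genes on the lower side and 6.87% on the higher. TDG, in the fit of all 18417 genes, had a common difference of 0.42 (SE 0.138, limma adjusted p = 0.596). TET3 differed by -0.10 in LNCaP and 0.05 in DU145, and the other TET2 probe set by 0.01 and -0.02.

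For TET2, the SD that limma used for 1 array around the fit was 0.124. With 1 array for each line and construct, that SD comes from disagreement between the lines. For TET2, limma pools that disagreement with the disagreement in the other genes tested. A difference of 2 arrays varies more than 1 array does, so the size of difference that the arrays can separate was not measured. In DU145, the steps in the order nc, siControl and miR-29b were small. There siControl lay -0.11 from nc and miR-29b -0.06 from siControl, while miR-29b lay -0.18 from nc. In LNCaP the steps were -0.23 from nc to siControl and -0.41 from siControl to miR-29b. The step down to siTET2 was larger than these in both lines.

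Genes around the 8 in the same pathways were given from 3 lists: base excision repair, regulators of TET proteins with partners of O-linked N-acetylglucosamine, and metabolism of alpha-ketoglutarate, succinate and fumarate. None of their genes rose or fell with siTET2 or with miR-29b in the limma test. Of base excision repair, 18 of 19 genes were measured and 16 tested. With siTET2, 14 of the 16 lay below 0, beside 50.1% of all genes tested. Within a line it was 11 in LNCaP and 12 in DU145. The share of all genes below 0 within a line is not given here, so nothing is read from these counts. For siControl minus nc, 10 of the 16 lay below 0, beside 52.1% of all genes tested. The median of the 16 with siTET2 was -0.08, beside -0.00025 over all genes tested. With miR-29b it was 0.04, beside -0.00455.

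FEN1, the nuclease that trims flaps during repair and replication, had the largest common difference of that list with siTET2. It read 9.45 with siTET2 and 9.97 with siControl in LNCaP, and 9.61 with siTET2 and 9.92 with siControl in DU145. The common difference was -0.41 (SE 0.0918, limma adjusted p = 0.105), the smallest adjusted p of the list. LIG3, a DNA ligase of repair, differed by 0.02 in LNCaP and -0.52 in DU145. NEIL3, a glycosylase for oxidised bases, differed by -0.66 in LNCaP and 0.17 in DU145, so neither had the same direction in both lines.

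With miR-29b the largest values of the repair list were small: NEIL3 at 0.16, LIG3 at -0.13 and PARP1, which senses DNA breaks, at -0.10. Their limma adjusted p-values were all 0.995.

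Of the TET regulators and O-linked N-acetylglucosamine partners, 18 of 19 were measured and 13 tested, with a median of 0.01 with siTET2. GADD45A, a stress-induced protein tied to DNA demethylation and growth arrest, read 7.94 with siTET2 and 7.52 with siControl in LNCaP. In DU145 GADD45A read 8.63 with siTET2 and 8.07 with siControl. The common difference was 0.49 (SE 0.181, limma adjusted p = 0.281), and siControl already lay 0.33 above nc. CXXC5, a zinc finger protein that binds DNA rich in CG, differed by 0.21 in LNCaP and 0.29 in DU145 (common 0.25, limma adjusted p = 0.265). QSER1, known to keep TET-bound sites free of DNA methylation, differed by -0.47 in LNCaP and 0.03 in DU145.

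With miR-29b the median of that list was -0.01, and its largest common differences were those of GADD45B (-0.15), PROSER1 (-0.13) and CXXC5 (-0.13). PROSER1 is known as a protein that joins OGT and TET2. It read 10.23 with miR-29b and 10.38 with nc in LNCaP, and 9.90 with miR-29b and 10.02 with nc in DU145.

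The metabolic list had 14 of 19 genes measured and tested, with a median of -0.05 with siTET2 and -0.0022 with miR-29b. With siTET2 the largest common differences were those of ACO1, the cytosolic aconitase (0.18), D2HGDH, which clears hydroxyglutarate (0.16), and IDH3A, a subunit of the mitochondrial isocitrate dehydrogenase of the Krebs cycle (-0.13). With miR-29b they were those of PSAT1, an enzyme of serine synthesis that yields alpha-ketoglutarate (0.23), IDH3A (0.14) and SDHD, a subunit of succinate dehydrogenase (-0.13). PSAT1 differed by 0.57 in LNCaP and -0.10 in DU145.

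Likeness of pattern was measured as Pearson's r over the 8 arrays after the mean of each line was taken away, against 9208 other genes. The points share their line and their controls, and the genes named are the highest of all, so r is a description here and has no p. For TET2 these were LIMS1, an adaptor at cell adhesions (0.997), COCH, a secreted matrix protein (0.987), ILF2, an RNA-binding protein (0.982), TM2D3 (0.977) and TLCD3A (0.973). An r of at least 0.9 was reached by 115 genes with TET2, 105 with OGT, 45 with IDH2, 31 with IDH1, 23 with SMUG1 and 12 with TET3.

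LIMS1 followed the order of TET2 with a smaller span. It differed by -0.40 in LNCaP and -0.45 in DU145 with siTET2, and by -0.20 in LNCaP and -0.03 in DU145 with miR-29b. TET3 was most like FEM1B, a substrate receptor of a ubiquitin ligase (0.971), JPT2 (0.931) and BCL6, a transcriptional repressor (0.930). BCL6 differed by -0.44 in LNCaP and -0.27 in DU145 with miR-29b, and by -0.22 in LNCaP and 0.36 in DU145 with siTET2.

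OGT was most like TUT7, which adds uridine to RNA (0.977), MED23, a Mediator subunit (0.977), and UBE2V1 (0.971). SMUG1 was most like FAM219B (0.975), RNF169 (0.971) and INTS9, an Integrator subunit (0.969). IDH1 was most like FRG1BP (0.977), ARMH3 (0.968) and GFM1, a mitochondrial elongation factor (0.964). IDH2 was most like LRIG1, a brake on growth factor receptors (0.987), MAPT, the microtubule protein tau (0.976), and OS9, of protein quality control in the endoplasmic reticulum (0.973). LRIG1 shared with IDH2 a high nc array: it differed by -0.47 in LNCaP and -0.50 in DU145 with miR-29b, and siControl also lay below nc by -0.37 and -0.50.

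Among the 6 genes themselves, r ran between -0.78 for TET2 with OGT and 0.824 for SMUG1 with OGT. SMUG1 with IDH1 had 0.797 and OGT with IDH1 had 0.722. TET2 and TET3 had 0.0685, although both were lower with miR-29b than with nc in each line.

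**Figure D4:**
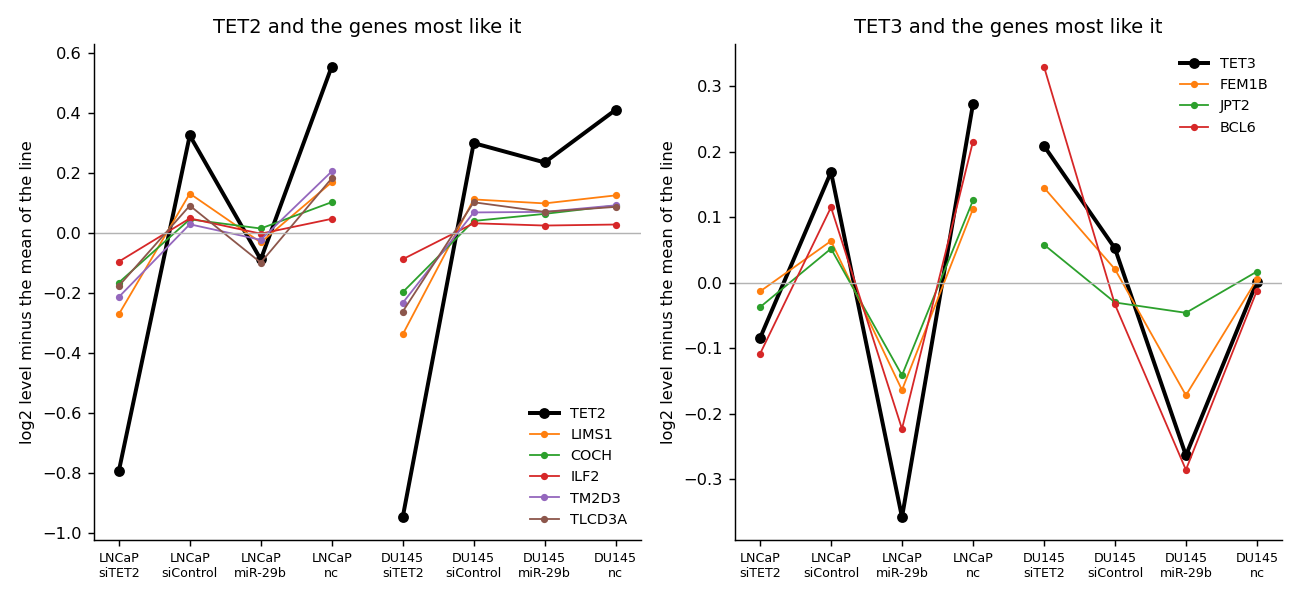
Log2 value minus the mean of the line (y axis) on the 8 arrays (x axis, with siTET2, siControl, miR-29b and nc within each line) for TET2 and the 5 genes of highest r with it, and for TET3 and its 3. Each point is 1 array and lines join the arrays of a line. TET2 and its 5 genes are lowest on the siTET2 arrays, while TET3 and its 3 genes are lowest on the miR-29b array of each line.

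With array medians subtracted, limma called all 6 genes tested as different between the 2 lines. As deposited it called 5, without SMUG1. The comparison used values after each array's median was subtracted, since the DU145 arrays lay lower as a whole and the sources do not say whether the lines were normalized together. After centring, the median difference of LNCaP minus DU145 over all genes tested was itself -0.263, and 23.8% of genes were higher and 53.8% lower in LNCaP. As deposited, 54.1% were higher and 27.6% lower, and with quantile normalization of all 8 arrays 40.3% were higher and 38.6% lower. With so many genes called, nothing is read from the count over the 8, and the values below describe the lines. The arrays of a line differ by construct and are not labelled as separate cultures. The p-values between the lines therefore do not measure the spread between cultures.

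TET2, TET3, OGT, IDH1 and IDH2 were higher in LNCaP under all 3 scalings. IDH1 was 12.12 to 12.58 in LNCaP and 10.97 to 11.13 in DU145 as deposited, and the centred difference was 0.82 (SE 0.0975, limma adjusted p = 3.15e-06). OGT was 10.41 to 10.62 in LNCaP and 9.20 to 9.32 in DU145, with a centred difference of 0.75 (SE 0.0793, limma adjusted p = 8.57e-07). IDH2 was 10.65 to 10.92 in LNCaP and 9.65 to 9.88 in DU145, with a centred difference of 0.56 (SE 0.0791, limma adjusted p = 1.76e-05). For these 3 genes the lines did not overlap under any of the 3 scalings.

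TET2 was 7.89 to 9.24 in LNCaP and 6.60 to 7.96 in DU145, and each construct was higher in LNCaP than the same construct in DU145, although the ranges overlap. Its centred difference was 0.62 (SE 0.089, limma adjusted p = 2.05e-05). The other TET2 probe set gave 0.33 after centring, 0.51 after quantile normalization and 0.84 as deposited. TET3 was 7.88 to 8.51 in LNCaP and 7.15 to 7.63 in DU145, with a centred difference of 0.31 (SE 0.0914, limma adjusted p = 0.00739). After centring its ranges overlapped, and without the nc array of either line the adjusted p was 0.0502.

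SMUG1 had no settled direction. It was 8.43 to 8.70 in LNCaP and 8.31 to 8.53 in DU145 as deposited. The centred difference was -0.41 (SE 0.0904, limma adjusted p = 0.000914), the quantile one -0.18 and the one as deposited 0.10 (limma adjusted p = 0.247).

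TDG and TET1 entered only the fit of all 18417 genes and went opposite ways. TDG was 7.78 to 8.57 in LNCaP and 6.68 to 7.09 in DU145, with a centred difference of 0.87 (limma adjusted p = 8.38e-06). TET1 was 5.95 to 6.30 in LNCaP and 6.85 to 7.66 in DU145, with a centred difference of -1.59 (SE 0.111, limma adjusted p = 1.29e-07). It was lower in LNCaP under all 3 scalings, at -1.08 as deposited and -1.65 after quantile normalization. TET1 lay below the measurable level on 7 of 8 arrays and TDG on the 4 of DU145, so the sizes of these differences rest on weak signals. RefSeq lists a pseudogene named after each of TET1, TDG, SMUG1 and IDH1, the only genes for which such a name was looked up. The part of these copies in the signal was not tested.

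**Figure D5:**
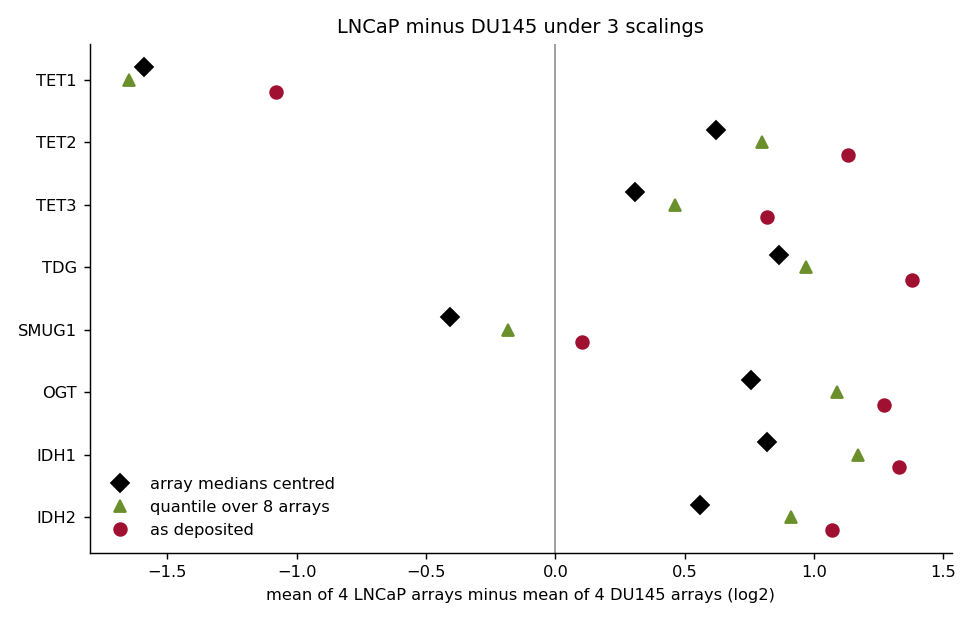
LNCaP minus DU145 for the 8 genes (y axis) as a log2 difference (x axis), from values centred on each array's median, as deposited, and after quantile normalization of all 8 arrays. TET1 lies below 0 and TET2, TET3, TDG, OGT, IDH1 and IDH2 above 0 under all 3 scalings, and SMUG1 runs between -0.41 and 0.10.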

How the data were processed

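Total RNA was labelled with biotin by an Affymetrix whole transcript kit and hybridised to 8 arrays. The authors deposited 1 table of log2 values, made with Affymetrix Expression Console and RMA per the submitters' processing notes; which arrays were normalized together is not given in the sources used here. The number of arrays limits the precision. Probe sets were named from the platform annotation, of which 19460 had 1 symbol, 1754 several and 12083 none listed; 19429 matched RefSeq, and several symbols meant no name. For 769 genes with several probe sets, that of highest mean stood for the gene. limma 3.58.1 (R 4.3.3) fitted line and construct effects over the 8 arrays, and its adjusted p-values are Benjamini-Hochberg's over all genes tested. The fit was tested on simulated data. Genes named are the 8, the 3 of each pathway list with the largest common difference a contrast, and the 3 (5 for TET2) of highest Pearson r. Members, lists and rules were chosen with earlier results of these data known. Alternatives changed the level floor, probe set, scaling, variance trend, control, line term and arrays included. All value columns were used.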

Additional observations from a re-analysis of the deposited data

Results flagged for a closer look

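TET3 went opposite ways with siTET2 in the 2 lines. It lay at -0.25 from siControl in LNCaP and at 0.16 in DU145, so that the LNCaP difference minus the DU145 difference was -0.41. Each side rests on 2 arrays, and the difference between the lines was not tested.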

How the results depend on the processing

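Each group is 1 array. The fit of all 8 arrays has 3 residual degrees of freedom for each gene. Its p-values do not rest on these alone, but also on the spread that limma pools over all genes tested. TET1 and, in DU145, TDG are near or below the level where the array measures. The fit matches arrays by line through its line term, and no further pairing was possible because each group has only replicate 1. With siTET2, 1 of the 6 genes tested was called (TET2), and 0 with no level floor, 0 with a floor at the 75th percentile (under which TET2 was not tested) and 0 with no term for cell line. Leaving out each array in turn gave 0 to 1, and where that left a construct with 1 array it was assumed to vary like the others. Between the lines 6 were called, 3 with the stricter floor, under which 3 were tested, and 5 to 6 with an array left out. At 1.5-fold against siControl, siTET2 in DU145 set TET2 apart, where 1.59% of measurable genes were lower and 0.955% higher. TET2 also passed against nc. TET1 passed on the higher side against siControl but not against nc. TET1 was measurable there only on the siTET2 array, and TET2 on the control arrays but not on the siTET2 array. Nothing is read from either count. With miR-29b in LNCaP, 2 genes were set apart, and 1 against siControl. The count was 0 against the mean of both controls and 1 with the other TET2 probe set. The direction turned for IDH2 with siTET2 against nc (-0.063), for OGT with miR-29b against siControl (-0.046) and the mean of both controls (-0.011), and for SMUG1 between lines as deposited (0.10). SMUG1 with miR-29b gave 0.0052 after quantile normalization, 0.017 against siControl and 0.0076 against both controls. With an array left out, siTET2 minus siControl ran between -0.24 and 0.15 for TET3 and between -0.029 and 0.24 for IDH1. miR-29b minus nc ran between -0.14 and 0.13 for SMUG1, -0.020 and 0.066 for OGT, and -0.028 and 0.36 for IDH1. siControl minus nc ran between -0.21 and 0.15 for TET3, -0.15 and 0.12 for SMUG1, and -0.084 and 0.30 for IDH1. The cause of these turns was not tested.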

Other observations

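RefSeq's promoter table (GRCh38.p14), which holds 300 bases around each gene start, lists windows for 7 of the 8 genes. The dinucleotide CG, which reads the same on both strands, occurs a median of 14 times over the 35116 windows. The windows of TET3 hold 45 and 33, and those of TET2 hold 13 and 35. TET1 has 10, 6 and 11 in its windows, IDH1 17 and 20, TDG 22, OGT 26 and IDH2 6. A count of at least 45 is found in 3.48% of windows. These counts describe the sequence, and no methylation was measured here.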
